A study of Mus musculus with 8 samples.

Results

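Airway secretory nuclei were picked out of single-nucleus multiome libraries, which read RNA and open chromatin (ATAC) in the same nucleus, by the transcripts of 3 secretoglobin genes (Scgb3a1, Scgb1a1 and Scgb3a2), Bpifa1 and Cyp2f2. A nucleus was a member if it held at least 1000 UMIs (tags that let each captured RNA molecule be counted once), if these 5 genes together reached 100 per 10000 UMIs, and if it held under 3 UMIs of Foxj1, the master gene of ciliated cells. Members were thus chosen by their measured RNA counts of these 6 genes. The rule found 106 of 7168 nuclei, and the other 7062 served for comparison. The nuclei came from alveolarspheres, cultures grown without serum or feeder cells from alveolar type II (ATII) cells of young and old mice. AAV9 virus was added on day 9, carrying Sox9 together with Cre recombinase (genotype Sox9Cre) or Cre alone (genotype Cre, the control). Following 4 days in a medium that drives differentiation to type I (ATI) cells, live tdTomato-positive cells of both groups were sorted and their nuclei extracted. The labels list 8 samples, with 2 RNA and 2 ATAC samples for each virus, and call the cell type ATII throughout. Both matrices pool all libraries. The 4 barcode prefixes are named libraries A to D here. They are matched by no label to a virus or an age of mouse, so Sox9Cre and Cre nuclei were not compared and the pool counts as 1 sample.

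Airway secretory cells line the conducting airways, not the alveoli. Club cells among them release secretoglobins and detoxify inhaled compounds with cytochrome P450 enzymes, while cells nearer the nose and trachea add Bpifa1, mucins and antimicrobial proteins to the fluid on the airway surface. In the developing lung the transcription factor Sox2 marks the future airways, whereas Sox9 marks the growing distal tips that give rise to alveoli.

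The members were found almost wholly in 2 libraries. Library C held 51 members among 3228 nuclei (1.58%, exact binomial 95% interval 1.18 to 2.07) and library D 53 among 1927 (2.75%, 2.07 to 3.58). Library A held 2 among 1253 (0.160%, 0.0193 to 0.575) and library B 0 among 760, which allows a share of up to 0.395% if 3 counts are taken as the limit of a count of 0 (exact interval up to 0.484%). The intervals of C and D overlap narrowly, and both lie above those of A and B. Intervals throughout reflect counting error alone; variation among cultures or mice is not in them. The marker sum ran from 100.4 to 2319 per 10000 with a median of 496.5, and 60 members were above 400. The members nearest the threshold had sums of 100.4, 103.7 and 105.9, and the nearest nuclei below it 94.8, 93.6 and 93.1. The Foxj1 criterion removed 0 nuclei.

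**Figure D1:**
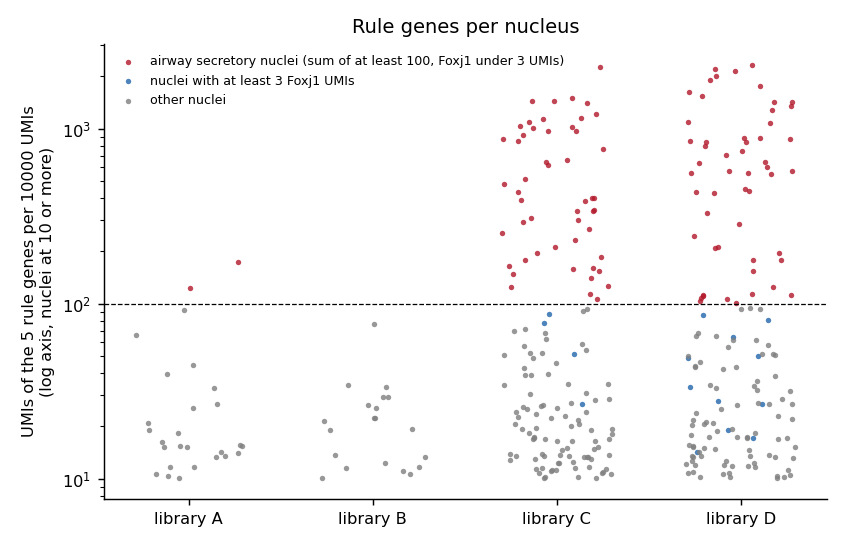
Summed UMIs of the 5 rule genes per 10000 UMIs (log axis) in single nuclei of libraries A to D, for nuclei at 10 or more; the dashed line is the threshold of 100. The 51 members of library C and 53 of library D run up to 2319, library A has 2 members under 200 and library B none.

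Members were read somewhat deeper for RNA than the other nuclei, with a median of 14260 UMIs against 11100. For ATAC their median was 8398 counts in peaks against 9192, which was 6104 against 9813 within library C and 12512 against 14068 within D. Mitochondrial genes took 9.76% of member UMIs in library C and 8.89% in library D, against 6.53% and 6.17% in the other nuclei. The nuclear RNAs Malat1 and Neat1 were 0.494-fold and 0.354-fold of the level in other nuclei, and Fos, an immediate early gene, was 2.33-fold higher. The part of RNA quality in the results below was not tested. No doublet caller was run; 4 members lay in the top 20% of their library by an ATII, ATI or transitional gene list. Of all barcodes 20 occurred in more than 1 library, and 0 of these belonged to members.

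The label was set beside 4 airway secretory genes that the rule did not use. They were picked after their values were seen, so they are no independent check. Reg3g, Hp, Cbr2 and Gabrp were all detected in 81 of 106 members, 3 of them in 15, 2 in 7, 1 in 2 and none in 1. Detection means at least 1 UMI, and the shares among all other nuclei are not given here. Of 21 nuclei with at least 3 Foxj1 UMIs, 18 had Cbr2, 18 had Hp, 8 had Reg3g and 1 had Gabrp. The 2 members of library A went against the label. Their sums of 122 and 174 per 10000 were nearly all Scgb1a1, with 0 UMIs of Scgb3a1, Bpifa1, Scgb3a2, Reg3g, Cbr2 and Gabrp in both, while Ager, the classic ATI gene, stood at 84.6 and 31.2 per 10000. The member with the lowest sum, in library D, had Scgb1a1 at 100.4 and Sftpc, the ATII surfactant gene, at 551 per 10000, with Hp and Cbr2 but no Reg3g or Gabrp. A member of library C led by Scgb3a1 had Sftpc at 619 per 10000, with 0 UMIs of Hp and Gabrp. The member of library D with 1 of the 4 genes was led by Bpifa1 and had Krt8, a gene of transitional cells, at 58.5 per 10000. Levels below are given for libraries C and D, while folds over all members include the 2 of library A.

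The rule genes describe the choice and are no finding. Together they made up 7.62% of member UMIs and 0.0204% of the UMIs of the other nuclei. Scgb3a1 was the most abundant, at 355 and 409 UMIs per 10000 in members of libraries C and D, against 0.733 and 0.993 in the other nuclei. Bpifa1, which encodes a secreted protein of the airway surface, stood at 166 and 177 in members of C and D, against 0.308 and 0.471. Cyp2f2, a P450 enzyme known for oxidising naphthalene in mouse club cells, stood at 67.4 and 46.2, against 0.553 and 1.07. Scgb1a1, the club cell secretory protein, stood at 63.2 and 26.7, against 0.522 and 0.367. Scgb3a2 differed most between the libraries, at 20.4 in members of C and 186 in members of D, against 0.0337 and 0.161, and 1 nucleus of library D held 27.9% of its member UMIs. In the other nuclei of A and B, the level of Scgb1a1 (0.466 and 0.476) was about that in C and D, so its low level outside the members was seen in all 4 libraries.

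Single members combined the rule genes in different ways. Cyp2f2 was detected in 104 members, Scgb3a1 in 99, Bpifa1 in 94, Scgb1a1 in 91 and Scgb3a2 in 68, and 56 members held all 5. Scgb3a1 gave the most UMIs in 52 members, Bpifa1 in 28, Cyp2f2 in 14, Scgb1a1 in 6 and Scgb3a2 in 6. The 6 led by Scgb3a2 were all in library D. Per nucleus, Scgb3a1 ran from 0 to 1628 per 10000 with a median of 185, whereas Cyp2f2 ran from 0 to 151 with a median of 49.3. Scgb3a2 had a median of 3.40 and a maximum of 1218.

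RNA was compared by a library-matched fold, the UMIs observed in members over those expected from the other nuclei of the same library. A gene was compared if at least 5 UMIs were expected, and called from 2-fold up or down; nuclei are not replicates, so there is no test. Of 11615 genes compared, 557 were higher (4.8%) and 1591 lower (13.7%) in members. The 5 rule genes are among the 557 and Foxj1 of the rule among the 1591. The median log2 fold of all compared genes was -0.29, and relative to that median 867 genes were higher and 951 lower. A further 376 genes with at least 10 UMIs in members had under 5 expected and are counted apart. Libraries C and D shared many of these genes. Of 384 genes higher in library D, with the rule genes left out, 275 were also higher in C (71.6% of the D genes and 65.3% of the 421 genes higher in C), where 4.23% of all 9964 genes compared in both were.

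Other airway secretory genes were nearly all higher among those compared. Of 26 listed, 15 were compared, 14 of them higher and none lower (median log2 fold 3.23), and another 7 were counted apart. Without library D, 9 passed as higher. Cbr2, a carbonyl reductase of club cells, stood at 134 and 90.4 UMIs per 10000 in members of libraries C and D, against 0.659 and 1.44 in the other nuclei (98.3-fold, 95.3 to 101). Hp, which encodes the haemoglobin-binding protein haptoglobin, stood at 73.2 and 88.8, against 0.516 and 0.509 (159-fold, 153 to 166). Reg3g, an antibacterial lectin, stood at 53.9 and 104, against 0.0688 and 0.283 (431-fold, 402 to 461). Members of C and D thus lay far above the other nuclei for each gene, with the order of the libraries turning between Cbr2 and Reg3g. Smaller folds were seen for genes that alveolar nuclei also express, such as Wfdc2 of the defence list below and the carboxylesterase gene Ces1d (4.27-fold, 4.07 to 4.48).

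**Figure D2:**
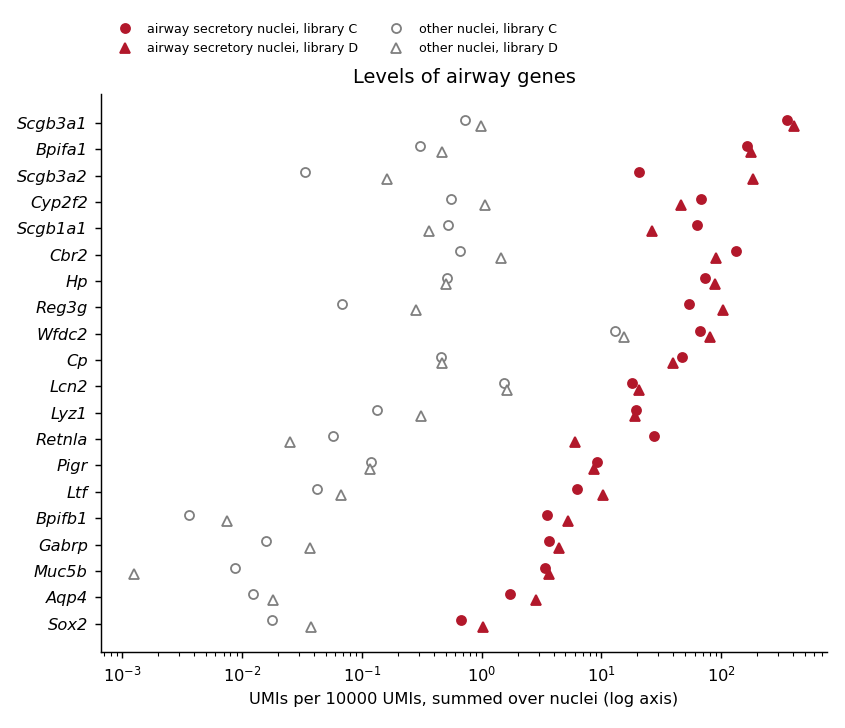
RNA levels of 20 airway genes (UMIs per 10000 UMIs summed over nuclei, log axis) in airway secretory nuclei (filled) and other nuclei (open) of library C (circles) and library D (triangles). Filled symbols lie right of open ones for every gene plotted, from Scgb3a1 at 355 and 409 against 0.733 and 0.993 down to Sox2 at 0.672 and 1.03 against 0.0179 and 0.0377.

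Genes of secreted defence proteins formed the second group. Of 35 listed, 18 were compared, with 13 higher and 2 lower (median log2 fold 2.97), and 3 more were counted apart. Cp, encoding the copper protein ceruloplasmin, stood at 47.5 and 39.3 per 10000 in members of C and D, against 0.456 and 0.466 in the other nuclei (92.3-fold). Lyz1, a lysozyme, stood at 19.3 and 19.1, against 0.135 and 0.311 (81.0-fold). Lcn2, which binds bacterial iron carriers, stood at 17.9 and 20.4, against 1.53 and 1.62 (12.1-fold). Wfdc2, a small secreted inhibitor-like protein, stood at 66.9 and 80.4, against 13.1 and 15.3 (5.13-fold). Pigr, the receptor that carries IgA to the airway surface, was 75.0-fold higher (68.3 to 82.3), lactoferrin (Ltf) 150-fold (132 to 170) and complement C3 24.7-fold (22.3 to 27.4). The 2 lower genes were Cxcl15 and Il33, which are also on the ATII list. In all 11 genes, among them Duox1, Duox2, Lpo, S100a8 and S100a9, had 0 UMIs in members.

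Mucous genes were present at low levels. Of 20 goblet genes 4 were compared, with Muc4, Creb3l1 and Galnt7 higher and none lower, and 8 were counted apart. Muc5b, the main gel-forming mucin of the mouse airway, stood at 3.36 and 3.69 per 10000 in members of C and D, against 0.00869 and 0.00124 in the other nuclei (806-fold, 570 to 1139), and was detected in 64 members. Bpifb1, a relative of Bpifa1, stood at 3.50 and 5.28, against 0.00358 and 0.00746 (779-fold, 536 to 1133). Agr2, which helps mucins fold, was 173-fold higher from 185 UMIs and Muc5ac 398-fold (115 to 1378) from 30. Spdef, the transcription factor of goblet cells, had 25 UMIs (15.7-fold, 9.80 to 25.1). Ern2, Gcnt3, Agr3, Tff1 and Tff3 of the same list had 0.

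The 20 genes with the highest folds that at least 20% of members carried included Gp2, a membrane glycoprotein that binds bacteria in the gut, with 115 UMIs in members and 3 in the other nuclei. Its fold of 1457 (372 to 5706) rests on those 3 UMIs, and with counts under 3 set to 3 within each library it was 723-fold in C and 666-fold in D. Others were Klk10, a kallikrein protease (478-fold, 276 to 830), Retnla, a resistin-like secreted protein (385-fold, 338 to 438), and Tff2, a trefoil peptide (240-fold, 145 to 397). Transport and signalling genes were among them as well: Slco1a5, an organic anion transporter (219-fold, 133 to 360), Tacr1, the substance P receptor (178-fold, 132 to 241), and Aqp4, a water channel (152-fold, 120 to 193). Retnla stood at 27.3 per 10000 in members of C and 6.04 in members of D, against 0.0578 and 0.0253. It was detected in 46 members, and of its 1868 UMIs in C single nuclei held 438, 384, 384 and 211. Between the libraries Tff2 leaned the other way, at 0.146 in members of C and 1.46 in members of D, against 0.00102 and 0.00580. Atp6v1b1 (235-fold, 119 to 463) and Acsm1 (155-fold, 106 to 228) were among them too. So was Cldn22, with 35 UMIs in members and 2 in the other nuclei, at 152-fold in C and 234-fold in D with the same floor.

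Genes of xenobiotic metabolism were higher in part. Of 34 listed, 22 were compared, 10 of them higher, none lower and 12 between (median log2 fold 0.92, and 15 higher relative to the median of all genes). Gsto1, a glutathione transferase, stood at 12.8 and 16.2 per 10000 in members of C and D, against 1.52 and 2.14 in the other nuclei (7.84-fold, 7.50 to 8.19). Gstm1, of the same family, was 5.44-fold higher and Aox3, an aldehyde oxidase, 3.84-fold. Cyp1b1, a P450 enzyme, was 13.8-fold higher (12.8 to 14.8). Gstm1 and Gstm2, Lyz1 and Lyz2, and Aldh1a1 and Aldh1a7 are near copies. Cp, Aox3, Aqp4, Aqp5, Foxa1, Hopx, Gata6, Slco1a5, Acsm1, Muc4, Six4, Dclk1, Trp63, Foxp1, Irx2, Tfcp2l1, Malat1 and Top2a overlap other annotated genes. Reads may therefore be shared between such genes. No source used here says how such reads, or their strand, were counted.

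Transcription factors of the airway differed in both directions. Of 54 factor genes in the matrix 42 were compared, of which 7 were higher, 12 lower and 23 between (12 higher and 8 lower relative to the median of all genes), and 8 were counted apart. Foxj1, which the rule used, is among the 12 and is not read. Without library C, 3 were higher. Sox2 stood at 0.672 and 1.03 per 10000 in members of C and D, against 0.0179 and 0.0377 in the other nuclei (30.0-fold, 23.8 to 37.8), and was detected in 66 members. The paired-box gene Pax9 (31.0-fold, 22.7 to 42.2) and Sox21 (22.6-fold, 16.7 to 30.6) were also counted apart. Among compared genes, Six4 was 6.23-fold higher, the ETS family genes Elf3 4.59-fold (4.02 to 5.25) and Ehf 3.51-fold (3.22 to 3.83), Creb3l1, which drives secretory capacity, 3.36-fold, Cebpb 2.51-fold (1.98 to 3.18), Klf4 2.05-fold and Foxa1 2.03-fold. Foxa1 was 2.20-fold higher in library C taken alone and 1.90-fold in D, and all 7 lay above the other nuclei in each of these libraries.

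Among the lower factors, Nkx2-1, which holds lung epithelial identity, stood at 1.5 and 1.53 per 10000 in members of C and D, against 3.67 and 3.93 in the other nuclei (0.408-fold, 0.360 to 0.461). Etv5, which maintains ATII cells, was at 0.213-fold (0.162 to 0.282), Irx1 at 0.243-fold, Hopx, an ATI gene, at 0.253-fold and Gata6 at 0.345-fold. Id2 was at 0.379-fold and Id3 at 0.403-fold. Tfcp2l1, Foxp1 and Irx2 lay between 0.426-fold and 0.459-fold and were not called lower relative to the median of all genes. Sox9, the gene the virus carries, stood at 0.117 and 0.151 per 10000 in members of C and D from 8 and 14 UMIs, against 1.09 and 0.969 in the other nuclei (0.133-fold, 0.0877 to 0.203). In the other nuclei of libraries A and B, Sox9 stood at 0.0147 and 0.0142 from 20 and 14 UMIs, below the members of C and D. Its RNA can come from the chromosome or from the virus, which the counts do not separate.

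Alveolar programmes were mostly low but not at 0. All 24 ATII genes were compared, with 20 lower, 3 between and 1 higher (the list's median log2 fold was -2.17). Scd1 was among those between (0.569-fold). Sftpc stood at 25.1 and 46.0 per 10000 in members of C and D, against 406 and 428 in the other nuclei (0.0883-fold). In nuclei with at least 3 Foxj1 UMIs, a cell type that should lack it, Sftpc stood at 10.8, and the part of free RNA was not tested. The median per member was 17.7 in C and 7.62 in D. Of 4273 Sftpc UMIs in members of D, single nuclei held 1575, 1071 and 870. Of 1721 in members of C, single nuclei held 338 and 327. The exception was Sftpd, a surfactant protein that airway cells also secrete, at 24.5 and 27.1 in members of C and D, against 9.81 and 9.19 (2.73-fold, 2.64 to 2.81). Of 23 ATI genes 14 were lower, 8 between and 1 higher (median -1.98). Aqp5, the ATI gene with the highest level in members, did not differ by 2-fold. It stood at 11.0 and 11.5 in members of C and D, against 9.11 and 11.0 (1.11-fold). Krt7 was also between (0.598-fold). Ager stood at 2.41 and 3.18 in members of C and D, against 23.6 and 25.4 (0.147-fold). Pdpn, the higher one, was 5.92-fold higher in library D from 47 UMIs and 1.83-fold in C from 10, and without library D none of the list was called higher.

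Of 22 transitional genes, which mark cells between ATII and ATI, 12 were lower and 1, Fn1, higher (7 lower relative to the median of all genes). Krt8, the keratin that names the state, stood at 4.67 and 6.25 per 10000 in members of C and D, against 12.8 and 15.2. Clu and Krt19, which had the list's highest levels in members, were called neither way. Clu stood at 38.2 and 55.1, against 39.1 and 38.6 (1.27-fold). Krt19 stood at 6.99 and 13.0, against 5.48 and 6.83 (1.66-fold), and was higher relative to the median of all genes. Next by level, S100a6 (0.484-fold) and Cdkn1a (0.460-fold) were lower, but not relative to that median. Lipid synthesis had 13 of 22 genes lower and none higher (median -1.24), with the fatty acid synthase gene Fasn at 0.194-fold. MHC class II had 5 of 7 compared genes lower and none higher, although H2-Ab1 was at 0.719-fold in library C and 0.174-fold in D. Among the 10 genes with the lowest folds, Cldn18, the tight junction claudin of alveolar cells, had the most UMIs in members. It stood at 0.599 and 0.516 in members of C and D, against 11.4 and 11.7 (0.0547-fold, 0.0451 to 0.0663). The other 9 rested on few counts, with 13 UMIs in members for Pde7b, of which 53.8% were in 1 nucleus, 10 for Lhfp, 7 for Zfp462, 5 for Tmem163, 3 for Wnt7a and 2 each for Cox6a2, Adam19, Adamts1 and Zfp385b. Of these, Pde7b, Lhfp, Zfp462, Wnt7a, Cox6a2, Adam19 and Zfp385b overlap other annotated genes.

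**Figure D3:**
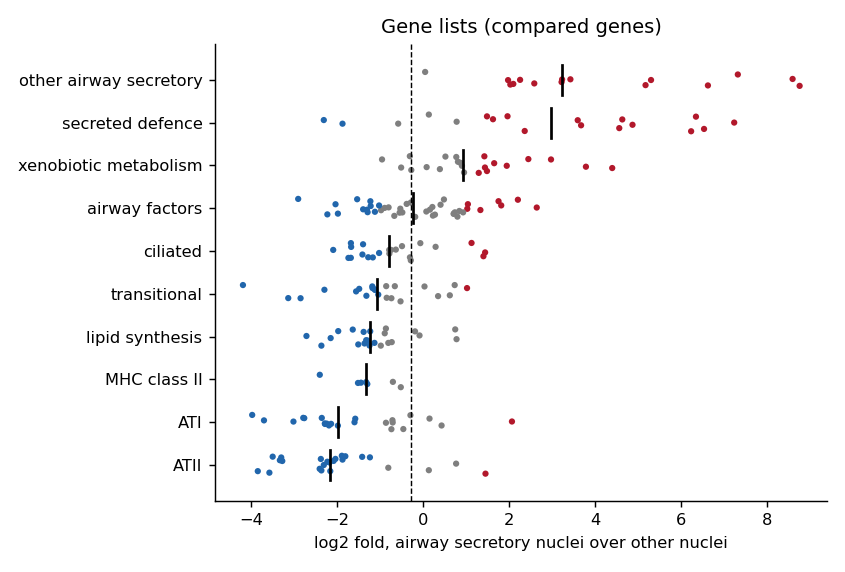
Log2 fold of RNA in airway secretory nuclei over other nuclei of the same library, 1 point per compared gene, for 10 gene lists; red is at least 2-fold higher, blue at least 2-fold lower, the short bar is the list's median and the dashed line the median of all compared genes (-0.29). Medians run from 3.23 for other airway secretory genes to -2.17 for ATII genes.

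Defining markers of several other cell types were at 0, but most genes of these lists were also low in the other nuclei. Under 5 UMIs were expected for 11 of 14 basal, 11 of 12 neuroendocrine, and 10 of 13 tuft and ionocyte genes. The same held for 10 of 12 immune, 9 of 10 endothelial and 11 of 12 mesenchymal genes. For such genes a count of 0 does not set members apart from the other nuclei. The share of all genes at 0 is not given here. Of 14 genes in the basal cell list, 7 had 0 UMIs, among them Krt5, Krt14, Krt17 and Ngfr. The 3 compared genes lay between, and Dapl1 and Trp63 were counted apart. Trp63, the basal cell factor, was 34.4-fold higher, 60.7-fold in library C and 6.73-fold in D. It had 67 UMIs in 13 members of library C, 37 of them in 1 nucleus, and 7 in 2 members of D. Of 22 ciliated genes compared, 3 were higher and 10 lower, Foxj1 of the rule among the 10, and the list summed to 1.93 and 2.47 per 10000 in members of C and D, against 2.12 and 2.86 in the other nuclei. Calca and Chga of neuroendocrine cells and Foxi1 and Ascl3 of ionocytes had 0. The tuft cell and ionocyte list nevertheless summed to 3.21 and 3.00 per 10000 in members of C and D, against 0.712 and 0.727 in the other nuclei. Of its 3 compared genes Dclk1, a kinase gene used as a tuft cell marker, was higher (8.53-fold, 7.65 to 9.50), with 412 UMIs in 69 members. Of the immune list 7 of 12 genes were at 0, Ptprc among them, of the endothelial list 7 of 10, with Cdh5, and of the mesenchymal list 8 of 12, with Pdgfra. The immune list summed to 1.62 and 3.79 per 10000 in members of C and D, against 2.77 and 2.5 in the other nuclei, and the mesenchymal list to 0.365 and 0.204, against 0.0984 and 0.147. In the mesenchymal list, Dcn, a mesenchymal matrix gene, had 30 UMIs.

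The remaining lists covered signalling and cell states. Of compared genes, Notch had 1 of 11 higher and 3 lower (4 and 1 relative to the median of all genes), Wnt 2 of 13 higher and 3 lower, ion and water transport 2 of 11 higher and 2 lower, interferon response 3 of 12 higher and 2 lower, YAP targets 3 of 13 higher and 3 lower, and p53 targets 1 of 16 higher and 5 lower. Of 11 distal tip genes compared 6 were lower and none higher, of 7 cartilage genes 1 was higher and 3 lower, of 6 hillock and squamous genes 3 were lower, and of 6 cell cycle genes none passed 2-fold. Counted apart were the hillock and squamous genes Sprr2a3 (72 UMIs, 27.0-fold, 19.8 to 37.0) and Krt4 (21 UMIs, 103-fold, 45.9 to 232), and the cell cycle genes Top2a (27 UMIs, 5.78-fold, 81.5% of them in 1 nucleus), Mki67 (13 UMIs, all in 1 nucleus), Cenpf and Cdk1 (10 UMIs each).

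The 21 nuclei with at least 3 Foxj1 UMIs, 8 in library C and 13 in D, shared part of the airway genes. Their marker sum ran from 0 to 87.4 with a median of 26.8. Cyp2f2 had a median of 49.3 per 10000 in members and 15.8 in these nuclei, Cbr2 a median of 106 in members and 39.9 in these, and Cp 41.4 in members and 13.4 in these. Summed levels in ATII-high nuclei (other nuclei in the top 20% of their library by the ATII list and not by another list) were far lower, at 0.322 for Cyp2f2, 0.508 for Cbr2 and 0.0669 for Cp. Sox2 stood at 1.01 per 10000 in Foxj1 nuclei, close to the members, against 0.00627 in ATII-high nuclei. Other genes that the rule did not use were detected mostly in members: Gabrp was detected in 94 of 106 members and 1 of 21 Foxj1 nuclei, and Muc5b in 64 of 106 and 0 of 21. Median depths were 14260 UMIs in members of C and D and 18375 in Foxj1 nuclei, and the members were thus the shallower. Bpifa1 summed to 11.5 in Foxj1 nuclei, of which 1 nucleus gave 59.9%.

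Among the members, Scgb3a1 varied across nuclei together with Reg3g (Spearman correlation 0.78 over 106 members; 0.70 within library C and 0.83 within D), and with Hp (0.66) and Pigr (0.65). These were among the 8 genes with the highest correlation out of 3204 carried by at least 50% of members. Cyp2f2 went with Cbr2 (0.66; 0.70 within C and 0.52 within D), and next with Ly6e (0.55), the peroxiredoxin gene Prdx6 (0.51) and the glutathione transferase gene Gstm2 (0.49). Its correlation with Scgb3a1 was -0.16, in nuclei chosen on a sum that holds both. Bpifa1 went most with Bpifb1 (0.48) and lactoferrin (0.45), and Scgb1a1 with no gene above 0.41. Nuclei share their library and differ in depth, Malat1 ran against Scgb3a1 (-0.56), and these correlations are descriptions.

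**Figure D4:**
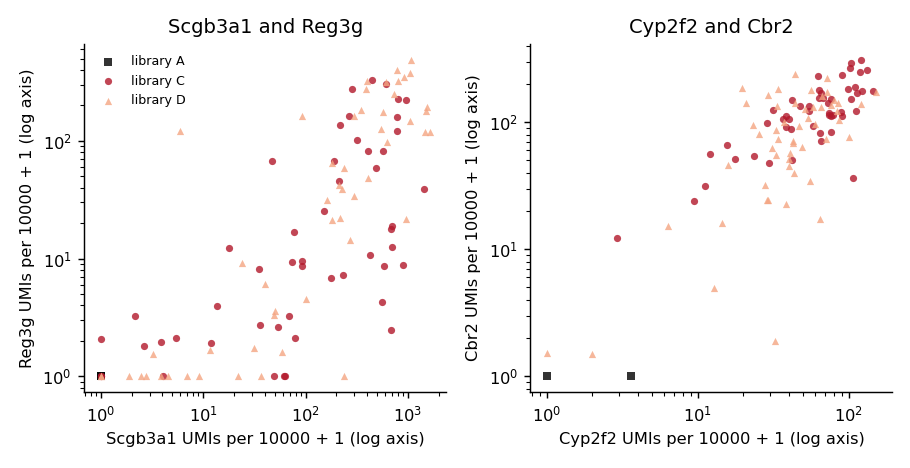
UMIs per 10000 plus 1 (log axes) in each of the 106 members, for Scgb3a1 and Reg3g (left) and Cyp2f2 and Cbr2 (right), with libraries A, C and D marked. Reg3g is high mainly where Scgb3a1 is above about 100, and Cbr2 climbs with Cyp2f2 (Spearman 0.78 and 0.66).

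In libraries C and D, 80 members were led by Scgb3a1 or Bpifa1 and 24 by another rule gene. Lyz1 stood at 24.3 per 10000 in the first and 3.32 in the second (7.55-fold, 6.28 to 9.09), and Retnla at 19.1 and 2.40 (6.98-fold, 5.62 to 8.67). The library C members with the most Retnla UMIs (438, 384, 384 and 211) were all in the first group. Bpifb1 (4.52-fold), Agr2 (4.45-fold) and Muc5b (2.07-fold) were also higher in members led by Scgb3a1 or Bpifa1, while Muc4 was at 1.22-fold (0.925 to 1.60), Muc5ac at 1.81-fold (0.603 to 5.45) and Spdef at 0.752-fold (0.303 to 1.87). The split itself uses values of the rule, and these genes were picked after their values were seen. Cbr2 (0.963-fold, 0.928 to 0.999), Gabrp (1.11-fold, 0.924 to 1.34) and Sox2 (1.11-fold, 0.731 to 1.70) differed little over both libraries, but their direction turned between them. Cbr2 was 0.761-fold in C and 1.37-fold in D, Gabrp 1.47-fold and 0.936-fold, and Sox2 0.594-fold and 1.80-fold.

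Open chromatin was not used by the rule. Of 31431 peaks with at least 10 counts expected in members, 905 were at least 2-fold more open (2.88%) and 4458 at least 2-fold less open (14.2%). The other peaks of the 116068 listed were not compared. Expected counts come from the other nuclei, so peaks nearly closed there are in neither number. The 10 peaks with the highest folds, given below, were all left out in this way. The 2 numbers thus do not weigh opening against closing in members. With each peak counted as 0 or 1 per nucleus, 400 were more open. Without library C the counts were 340 more open and 2419 less open, and without library D 43 and 347, since fewer members leave fewer peaks with 10 expected counts. Of 293 peaks more open in library D, 117 were also more open in C (39.9% of the D peaks and 21.7% of the 539 in C), where 2.73% of the 19777 peaks compared in both were. More open peaks lay away from gene starts, with 9.17% of them within 1000 bp of a start in RefSeq's promoter table, against 33.9% of all compared peaks; the table is not complete. Less open peaks were alike in this, at 6.80%. Within 50000 bp of a gene higher in RNA or counted apart lay 24.6% of the more open peaks and 6.28% of the less open ones, against 10.7% of all compared. The genes counted apart entered through their UMIs in members, and shares near the compared genes alone were not worked out. The rule genes are among the genes higher in RNA here.

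Peaks over a gene and 2000 bp on either side were summed as a window. Of 16616 windows, 863 were at least 1.5-fold more open (5.19%) and 1460 less open (8.79%). Among 526 windows of genes higher in RNA, 121 were more open (23.0%), and among 1469 of genes lower in RNA, 234 were less open (15.9%) and 13 more open. Of 19 windows of other airway secretory genes 10 were more open and 0 less open, whereas of 21 windows of secreted defence genes 3 were more open and 5 less open. Of 23 ATII windows 8 were less open and 3 more open. None of the 22 lipid synthesis windows passed 1.5-fold either way, though 13 of those genes were lower in RNA.

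Peaks at named genes are given whether or not 10 counts were expected. The one with the highest fold lay beside the start of Gabrp, the pi subunit of the GABA-A receptor. At chr11:33579298-33580251 (GRCm38, as listed by the authors), it held 44 counts in members where 2.35 were expected (18.8-fold, 13.3 to 26.5), 15.1-fold for library C and 21.5-fold for D. The other peak at Gabrp, chr11:33570218-33571117, had 1 count in members where 5.65 were expected. A peak over the start of Sox2, at chr3:34649387-34650309, held 48 counts against 9.79 expected (4.90-fold, 3.64 to 6.59), 5.80-fold for C and 4.52-fold for D. At Cyp2f2, a peak that covers its start (chr7:27119472-27120304) was 4.70-fold more open (2.86 to 7.73) and one just upstream (chr7:27117864-27118809) 3.85-fold (2.72 to 5.46). The peak at chr19:9087703-9088605 near Scgb1a1 was 4.32-fold more open (2.76 to 6.75), while its other 2 peaks were at 0.478-fold and 1.35-fold. The peak near Scgb3a2 was 5.51-fold more open (3.58 to 8.48), the peak at Tacr1 10.1-fold, the peak at Slco1a5 5.91-fold (4.45 to 7.85) and the better covered one at Hp 3.6-fold (2.42 to 5.35). A peak at Pax9 was 2.22-fold more open (1.69 to 2.90). No listed peak lay within 2000 bp of Scgb3a1, Bpifa1, Reg3g, Muc5b or Retnla, so these genes could not be read in ATAC.

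Alveolar genes showed the opposite in part. A peak at Sftpc (chr14:70523775-70524720) held 6 counts in members where 26.1 were expected (0.230-fold, 0.103 to 0.514), while its other peak was at 1.28-fold. The better covered peak at Ager was at 0.285-fold (0.136 to 0.600). Nkx2-1, at 0.408-fold in RNA, had a window at 1.24-fold (0.992 to 1.55). The 3 peaks over Sox9 together were at 0.565-fold (0.424 to 0.754), 0.276-fold for library C and 0.758-fold for D.

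**Figure D5:**
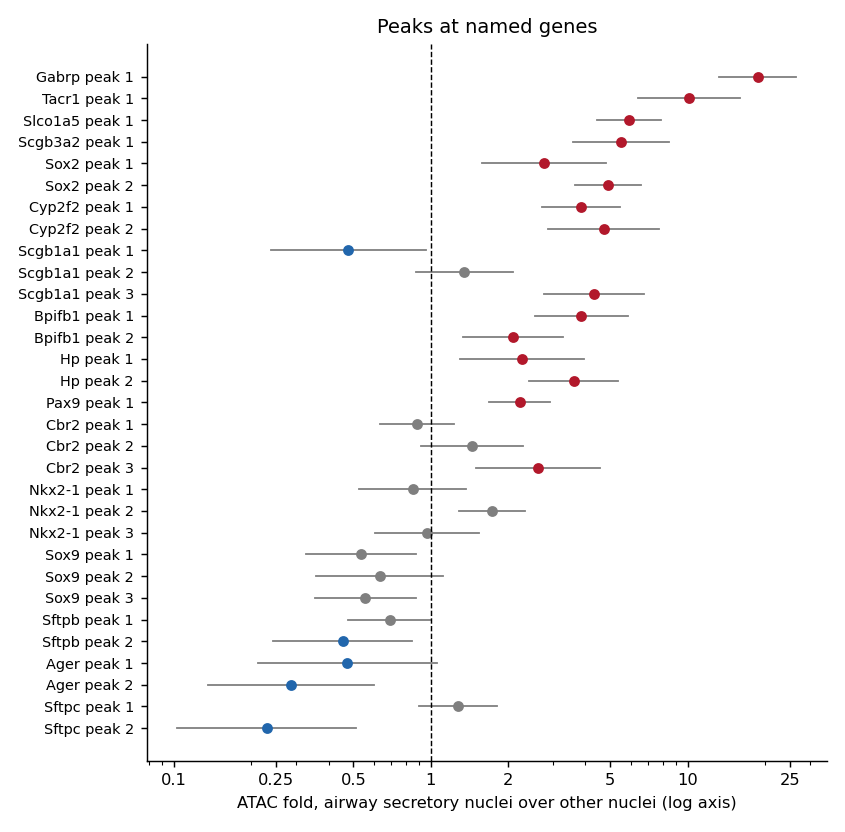
ATAC fold of peaks at 16 named genes in airway secretory nuclei over other nuclei of the same library (log axis; points are folds, lines 95% counting intervals, the dashed line is 1); red is at least 2-fold more open and blue at least 2-fold less open, and a gene's peaks are numbered along the chromosome among those with enough counts to draw. Gabrp leads at 18.8-fold, and peaks at Ager and Sftpc lie lowest at 0.285-fold and 0.230-fold.

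The 10 peaks with the highest folds among those with at least 20 counts in members were 27.2- to 90.7-fold more open, with 24 to 37 counts, and all had under 10 counts expected. The top one, at chr15:24468228-24469134, held 33 counts in 23 members where 0.364 were expected (90.7-fold, 50.1 to 164), 256236 bp from the nearest listed start. The next, at chr9:5528897-5529837, held 35 counts in 26 members (60.3-fold, 36.4 to 99.8). Their folds were 149 from 11 counts and 43.2 from 5 within library C, and 77.5 and 68.4 within D. The peaks were picked by their counts in members and ranked by the fold over all members. The folds within C and D reuse those counts and are no separate support. Of the other 8, 1 lay 134 bp from a listed start and the nearest of the rest 5802 bp away, among them 4 inside Abcc4, Pik3c2g, Lpp and Cep128. By RNA, Gm28710, the gene at the third peak, was 79.1-fold higher from 41 UMIs, of which 46.3% were in 1 nucleus. Of the nearest protein-coding genes outside the peaks, Casp12 was 26.5-fold higher from 22 UMIs, Basp1 3.97-fold from 209 and Il1rap 2.79-fold from 78, while Tns1 was at 0.0603-fold from 8 UMIs and Foxi1 had 0. The RNA of Abcc4 was at 1.31-fold, of Lpp at 0.612-fold, of Cep128 at 1.26-fold and of Pik3c2g at 0.222-fold.

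Promoters of 6 genes are printed to show the letters at their starts: the rule genes Scgb3a1, Bpifa1 and Cyp2f2, and Sox2, Ltf and Retnla. They are RefSeq sequences of GRCm38.p6, 250 bases before to 50 after the start, 5′ to 3′ on the strand of the gene. Capitals mark matches, on either strand, to CAAGTG (bound by NKX2-1), TGTTTAC (FOXA factors), TTNNGCAA (C/EBP factors) or AGGAAGT (ETS factors), and no 2 matches touch in the promoters printed.

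Scgb3a1, chr11:49663345-49663644, plus strand: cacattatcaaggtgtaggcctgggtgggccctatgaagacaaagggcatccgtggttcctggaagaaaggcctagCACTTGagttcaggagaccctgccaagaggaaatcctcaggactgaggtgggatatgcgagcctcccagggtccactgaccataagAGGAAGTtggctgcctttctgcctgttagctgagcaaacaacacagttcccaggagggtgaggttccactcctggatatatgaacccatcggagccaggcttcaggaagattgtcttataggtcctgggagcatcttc
Bpifa1, chr2:154142630-154142929, plus strand: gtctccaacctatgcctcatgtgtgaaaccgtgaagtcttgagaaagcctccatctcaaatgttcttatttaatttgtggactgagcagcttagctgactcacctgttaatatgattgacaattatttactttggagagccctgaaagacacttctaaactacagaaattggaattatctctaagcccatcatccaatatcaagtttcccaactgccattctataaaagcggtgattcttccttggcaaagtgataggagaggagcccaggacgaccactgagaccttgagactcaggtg
Cyp2f2, chr7:27119705-27120004, plus strand: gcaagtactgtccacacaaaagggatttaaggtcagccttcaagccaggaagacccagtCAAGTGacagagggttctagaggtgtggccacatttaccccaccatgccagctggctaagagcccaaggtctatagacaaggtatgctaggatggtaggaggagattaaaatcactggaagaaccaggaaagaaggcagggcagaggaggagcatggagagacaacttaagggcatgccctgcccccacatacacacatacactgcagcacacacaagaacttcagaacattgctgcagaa
Sox2, chr3:34649745-34650044, plus strand: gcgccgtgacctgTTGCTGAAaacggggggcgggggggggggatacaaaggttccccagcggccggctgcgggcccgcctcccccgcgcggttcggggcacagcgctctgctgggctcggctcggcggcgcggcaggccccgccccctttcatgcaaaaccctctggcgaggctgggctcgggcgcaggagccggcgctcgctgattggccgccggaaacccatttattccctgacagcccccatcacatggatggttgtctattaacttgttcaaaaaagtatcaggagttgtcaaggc
Ltf, chr9:111019042-111019341, plus strand: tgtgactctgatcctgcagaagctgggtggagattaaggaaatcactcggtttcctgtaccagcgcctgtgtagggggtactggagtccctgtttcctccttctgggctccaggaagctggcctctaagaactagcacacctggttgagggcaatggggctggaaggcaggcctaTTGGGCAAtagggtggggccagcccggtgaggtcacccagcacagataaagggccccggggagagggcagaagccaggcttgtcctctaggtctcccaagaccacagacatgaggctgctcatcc
Retnla, chr16:48842359-48842658, plus strand: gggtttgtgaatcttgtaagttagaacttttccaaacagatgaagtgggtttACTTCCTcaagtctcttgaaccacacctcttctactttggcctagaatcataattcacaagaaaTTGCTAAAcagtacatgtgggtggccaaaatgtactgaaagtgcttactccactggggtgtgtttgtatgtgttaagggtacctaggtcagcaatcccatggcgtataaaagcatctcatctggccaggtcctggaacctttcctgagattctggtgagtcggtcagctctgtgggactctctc

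The Cyp2f2, Sox2 and Ltf promoters lie wholly inside a listed peak, and those of Scgb3a1, Bpifa1 and Retnla are 9799, 15223 and 9774 bp from the nearest. Scgb3a1 holds 1 CAAGTG and 1 AGGAAGT, Cyp2f2 1 CAAGTG, Sox2 and Ltf 1 TTNNGCAA each, Retnla 1 TTNNGCAA and 1 AGGAAGT, and Bpifa1 none of the 4. The promoter of Gabrp, which is not printed, also holds none and lies 91 bp from the nearest peak. Of all 27025 promoters in the table, 13.5% hold CAAGTG, 3.55% TGTTTAC, 10.8% TTNNGCAA and 9.57% AGGAAGT. A match describes the letters and is not a bound site.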

How the data were processed

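The authors deposited raw counts in pooled form: UMI counts for 32285 genes and ATAC counts for 116068 peaks in the same 7224 nuclei. Tools named per the submitters' processing notes are Signac 1.10.0, Seurat 4.3.0 and Cell Ranger 6.0.1; builds named there are mm10 and GRCm38. The sources used here do not give how peaks were called, how nuclei were filtered or what 1 ATAC count stands for. Oligo lists were not used here. Tests between Sox9Cre and Cre could not be run.

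Members and gene lists were chosen with earlier results of these data known. Levels are UMIs per 10000 UMIs, summed over nuclei. In folds a count under 3 was set to 3, with log-normal counting intervals at 95%; shares have exact Clopper-Pearson intervals. RNA totals were 9853638 to 39796940 UMIs per library. The calculation was tested on simulated data. Named genes were the rule genes, the 20 highest folds (UMI in at least 20% of members, at least 2-fold in C and in D), the 10 lowest with at least 50 UMIs expected, up to 4 per list by level, called airway factors, Sox9 and the 10 top peaks. Other genes named, such as Gabrp, Sox2, Pax9, Pigr and C3, were chosen after their values were seen. A few genes that these rules take in are not reported here. Of all genes 82.6% had a position in RefSeq's GRCm38.p6 table. Python 3.11.15, numpy 2.4.6, scipy 1.17.1 and pandas 2.3.3 were used. Nuclei are not replicates, so no p was computed.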

Additional observations from a re-analysis of the deposited data

How the results depend on the processing

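No paired analysis was possible because no label ties a barcode prefix to a sample, so the planned comparisons of Sox9Cre with Cre (replicate block, DESeq2, replicates left out) were not run. With a marker sum of at least 200 (78 members), 1 xenobiotic gene was lower, 0 transitional genes higher, the Scgb3a1 and Reg3g correlation 0.60 and the more open peaks 574. Leaving out library A, C or D in turn gave 53 to 104 members, 9 to 14 other airway secretory genes higher, 0 to 1 xenobiotic genes lower, 0 to 1 ATI genes higher, 3 to 7 airway factors higher, 39 to 80 members led by Scgb3a1 or Bpifa1, and 43 to 882 peaks more and 347 to 4352 less open. Without the 10% of members with the most UMIs, 1 lipid synthesis gene was higher and 533 peaks more open; without members in a top 20% by list, 0 transitional genes were higher. Counting each peak as 0 or 1 gave 400 more open. With at least 20 expected, 277 genes were higher and 1037 lower, and 87 peaks more and 861 less open, with fewer features compared. With no filter 13043 genes passed as higher, by construction, since counts under 3 were set to 3. Pooling libraries, or leaving out members led by Scgb1a1, gave 1 xenobiotic gene lower. Relative to the median of all genes, 867 were higher and 951 lower, with 2 ATII, 2 transitional, 2 lipid synthesis and 12 airway factor genes higher and 7 transitional genes lower. Leaving out members led by Scgb1a1 and centring on the median were chosen after seeing the data. Foxj1, part of the rule, turned to 1.72-fold when nuclei at 10 to 100 were left out of the comparison. Of 2128 values for 152 genes, 1652 stayed within their counting interval, 475 left it and 1 reversed. Except where named, the cause was not tested. Depth limits genes and peaks with few expected counts.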
